A study of Mus musculus with 48 samples.

Results

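The cells described here were the muscle cells that carried the cell type label Myocytes in the authors' annotation. All annotated muscle cells with this label were taken, which gave 1604 of the 4565 annotated muscle cells and of the 12096 annotated cells of the whole series. The genes that mark muscle were at or near 0 in these cells, which goes against the label, so they are called Myocyte-labelled cells by their rule and no other cell type name is given to them.

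The series measured single-cell RNA by Seq-Well, in which each cell shares a nanowell with a barcoded bead and its transcripts are counted as unique molecular identifiers (UMIs), in 5 organs of male DBA1/J mice. The 6 mice with collagen-induced arthritis (CIA, disease state Sick, named S) had received bovine collagen II in complete Freund's adjuvant at the tail base and a booster in incomplete adjuvant on day 20. The 4 Healthy mice (named H) were controls with an arthritis score of 0, and by the study's methods they were injected in a similar way with phosphate-buffered saline. By the study's methods the mice were 8 to 12 weeks old, and the labels give no age for each. One muscle library was made from each mouse, and sample names carried the prefix 2CIA for S1, S2, S3, and H3 and the prefix CIA for S5, S6, S8, H4, H6, and H7, treated here as 2 experiments. Arthritis scores were 8 in S1, S2, and S3, 4 to 5 in S5, 3 to 4 in S6, and 2 to 3 in S8. Score and experiment therefore cannot be told apart among the CIA mice. All organ samples were cryopreserved, muscle was minced and digested with collagenase II and DNase I, and spleen was pressed through a strainer and freed of red blood cells by lysis, so organ and preparation cannot be told apart. According to the authors' sample list, red blood cells were also lysed in some muscle samples, S6, H6, and H7 among them.

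Skeletal muscle fibres are long multinucleated cells whose transcripts are dominated by genes of the contractile apparatus. MHC class II molecules display peptides from engulfed proteins to CD4+ T cells and are made by B cells, dendritic cells, and activated macrophages. Their alpha and beta chains assemble with the invariant chain Cd74 and are loaded with the help of H2-DM. B cells also carry an antigen receptor whose signals are passed on by the Cd79a and Cd79b chains.

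The label was spread very unevenly over the mice. Mouse S6, a CIA mouse with an arthritis score of 3 to 4, held 1492 Myocyte-labelled cells, which were 75.0% of its 1989 annotated muscle cells (95% exact binomial interval 73.0 to 76.9%) and 93.0% of all Myocyte-labelled cells. Among the other CIA mice, S2 held 9 of 689 annotated cells (1.31%), S5 held 5 of 348 (1.44%), and S3 held 1 of 175 (0.571%). S1 held 0 of 45 and S8 held 0 of 262, which allow shares of up to 6.67% and 1.15% when the limit of a count of 0 is set at 3 cells (exact 95% upper bounds 7.87% and 1.40%). Among the healthy mice, H7 held 64 of 449 annotated cells (14.3%, interval 11.2 to 17.8%) and H6 held 33 of 370 (8.92%, interval 6.22 to 12.3%), while H3 with 0 of 70 and H4 with 0 of 168 allow shares of up to 4.29% and 1.79% by the same limit (exact bounds 5.13% and 2.17%). These intervals and limits, and all others given here, cover counting error only. Because 1 CIA mouse held nearly all of the cells, CIA and healthy mice were not compared by a test. The 3 samples with at least 20 of the cells all belonged to the experiment CIA.

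**Figure D1:**
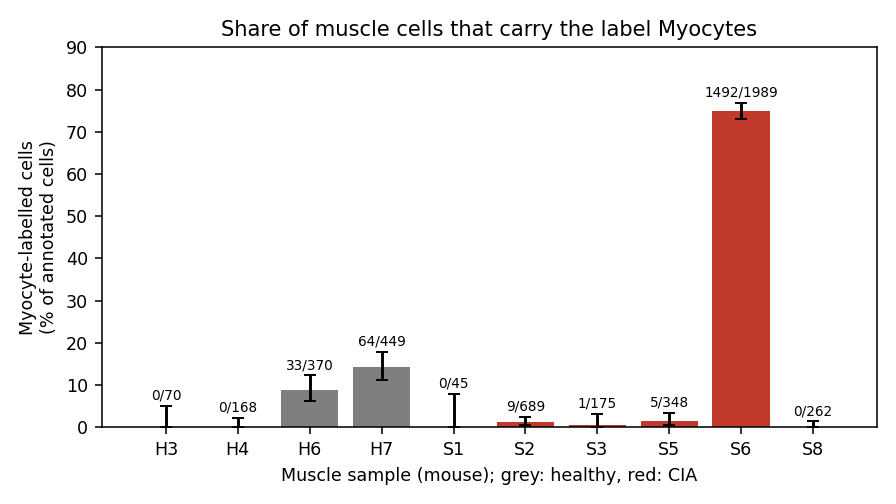
Share of annotated muscle cells labelled Myocytes (percent, y axis) in each of the 10 muscle samples (x axis), with 95% exact binomial intervals and the numbers of cells. S6 stands at 75.0%, H7 at 14.3%, and H6 at 8.92%, and the other 7 samples lie at 1.44% or below.

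The label had replaced an unnamed cluster. All 1625 cells labelled Myocytes in any organ were called Unknown0 in the authors' earlier column of the same annotation, and the 21 of them outside muscle were 20 joint cells, 17 of them from S5, and 1 spleen cell. In S6 muscle the other annotated cells were 236 T cells, 86 neutrophils, 85 fibroblasts, 84 macrophages, 3 endothelial cells, and 3 granulocytes, and 0 cells were labelled B cells or dendritic cells. By contrast, 150 cells of S8 muscle, 13 of H6 muscle, and 5 of H7 muscle carried the label B cells.

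The Myocyte-labelled cells were shallow and of even depth. In S6 they summed to 1117825 UMIs with a median of 621 UMIs per cell (range 416 to 4964) and 442 genes, and only 25 cells exceeded 2000 UMIs. The H6 cells summed to 19647 UMIs (median 544) and the H7 cells to 42718 (median 522), so single genes rest on few counts in the healthy mice. The cell barcodes were specific to the library, as 1 of the 1492 barcodes recurred in any of the 47 other libraries. The median mitochondrial share was 2.66% in the S6 cells and 2.53% in the other annotated cells of the same sample. It was 12.8% in spleen B cells, so any comparison with spleen also compares samples that differ in this share.

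Genes that define muscle were at or near the level of counting noise. The 10 genes of the skeletal muscle fibre list summed to 51 UMIs in the S6 cells, or 45.6 CPM (UMIs scaled to a common library total, interval 34.0 to 60.0), against 93.6 CPM in H7, 0 UMIs in H6, and between 41 and 81 CPM in the T cells, macrophages, fibroblasts, and neutrophils of S6 muscle. Acta1, the skeletal alpha actin, had 13 UMIs, Mylpf, a fast myosin light chain, had 11, Ckm, the muscle creatine kinase, had 7, and the titin gene Ttn had 6. The fast myosin gene Myh4, the muscle filament gene Des, the satellite cell factor Pax7, and the myoblast factor Myod1 had 0 UMIs each among 1117825. The levels of the fibre list were therefore no higher in these cells than in cells labelled as something else in the same library. The satellite cell and myoblast list stood at 5.37 CPM, the pericyte list at 7.16 CPM, and the smooth muscle list at 50.1 CPM in S6, 102 CPM in H6, and 46.8 CPM in H7, the healthy values resting on 2 UMIs each.

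The markers by which the label had been defined were scarce as well. The 10 myocyte markers of the study (Adgrf5, Adi1, Bgn, Cd151, Cpe, Fhl1, Palld, Rgs5, Rgs16, and Sgce) summed to 84.1 CPM in the S6 cells, 50.9 CPM in H6, and 0 in H7. In S6 fibroblasts the same list stood at 1129 CPM, and in S6 T cells at 105 CPM. The proteoglycan gene Bgn had 29 UMIs and Adi1, an enzyme of methionine salvage, had 28, and these were the only markers above 12. Bgn was at 25.9 CPM, against 133 CPM in the other annotated cells of S6 muscle.

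**Figure D2:**
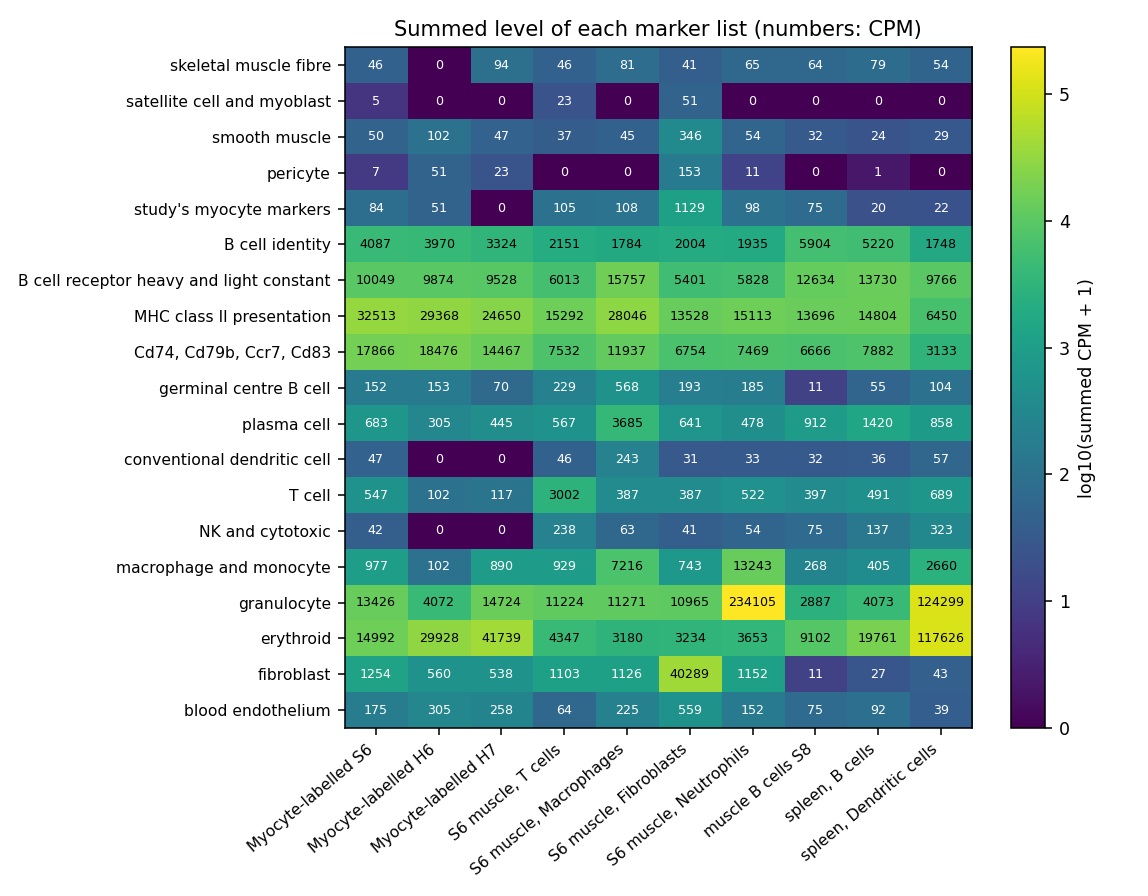
Summed level of each marker list (CPM on a log axis) in Myocyte-labelled cells of S6, H6, and H7, in other labels of S6 muscle, and in B cells and dendritic cells as named on the plot. The skeletal muscle fibre list lies at or below 93.6 CPM and the smooth muscle list at or below 102 CPM in the 3 labelled samples, and the MHC class II list lies between 24650 and 32513 CPM there.

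The most abundant protein-coding transcript of the S6 cells was Cd74, which ranked second among all genes after mitochondrial ribosomal RNA. The MHC class II list (10 genes) reached 32513 CPM in S6 (interval 32180 to 32849), 29368 CPM in H6, and 24650 CPM in H7. It lay at 15292 CPM in S6 T cells, 13528 CPM in S6 fibroblasts, 28046 CPM in S6 macrophages, and 6486 CPM in the other annotated cells of healthy muscle. The class II RNA was thus high in all 3 labelled samples, and S6 cells of labels that should make little of it also carried a considerable amount.

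The class II genes sit together on chromosome 17, and their promoters are known to share an array of short elements that ends in a reversed CCAAT box. The RefSeq promoter table (GRCm38.p6, 250 bases before to 50 after each start) held 7 of the 10 list genes, without Cd74, H2-Ab1, and Ciita. The letters ATTGG, the CCAAT box read on the other strand, stood 43 to 90 bases before the start on the gene's strand in 6 of the 7 genes. The stretches of 65 bases around them are shown because they are the shared feature of the gene group that leads the Myocyte-labelled cells. Capitals mark ATTGG, and in H2-Aa also TGACGTCA, the cyclic AMP response element.
H2-Aa, chr17:34287852-34287916 (minus strand): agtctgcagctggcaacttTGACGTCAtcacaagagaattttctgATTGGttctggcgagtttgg
H2-Eb1, chr17:34305763-34305827 (plus strand): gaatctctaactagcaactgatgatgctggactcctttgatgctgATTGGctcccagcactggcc
H2-DMb1, chr17:34153085-34153149 (plus strand): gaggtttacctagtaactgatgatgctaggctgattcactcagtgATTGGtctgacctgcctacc
H2-DMb2, chr17:34145114-34145178 (plus strand): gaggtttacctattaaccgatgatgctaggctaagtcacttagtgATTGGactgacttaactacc
H2-Oa, chr17:34092291-34092355 (plus strand): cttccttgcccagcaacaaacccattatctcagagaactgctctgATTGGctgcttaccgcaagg
H2-Ob, chr17:34238803-34238867 (plus strand): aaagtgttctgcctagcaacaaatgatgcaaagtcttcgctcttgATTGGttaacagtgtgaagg
The palindrome TGACGTCA was found in H2-Aa only, with 18 bases between it and ATTGG. Over all 32851 promoters of the table, 37.4% held ATTGG on either strand anywhere in the 300 bases, 9.06% held it on the gene's strand between 100 and 21 bases before the start, and 1.79% held TGACGTCA. A match is a description of these letters and no evidence of binding.

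Cd74 reached 14952 CPM in S6 (16714 UMIs, interval 14726 to 15181), 16593 CPM in H6 (326 UMIs), and 12805 CPM in H7 (547 UMIs). Among the 11 other labels of muscle it was highest in macrophages, at 8541 CPM, and had a median of 2257 CPM. All 3 labelled samples therefore lay above every other label of muscle when labels were summed over all mice. Within H6 and H7 the 18 B-labelled cells, at 13928 CPM, lay between the 2 labelled samples.
H2-Aa, the class II alpha chain (GRCm38 chr17:34282744-34287823, minus strand), was at 8725, 6311, and 5501 CPM in S6, H6, and H7. H2-Ab1, the beta chain of the same pair (chr17:34257689-34269419, plus strand), was at 6801, 4886, and 4541 CPM. Muscle macrophages, the highest other label, held 6852 CPM of H2-Aa and 5240 CPM of H2-Ab1, so for both chains only S6 lay above them. Between S6 cells alone, the labelled cells and the macrophages were close for H2-Aa (a fold of 0.989) and H2-Ab1 (0.942).
H2-Eb1, the beta chain of the second class II pair (chr17:34305867-34316674, plus strand), was far lower, at 221 CPM in S6 and 3 UMIs each in H6 and H7. H2-DMb2, a chain of the peptide exchange factor, was at 608, 407, and 538 CPM, and its near-identical neighbour H2-DMb1 may share reads with it. Ciita, the master activator of the class II genes, had 14 UMIs in S6.

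Class II RNA took a larger share of a cell's UMIs, by the median, in Myocyte-labelled cells than in the other groups measured. The UMIs of Cd74, H2-Aa, and H2-Ab1 made up a median of 3.10% of a cell's UMIs (5th to 95th percentile 1.55 to 4.78%, a median of 20 UMIs). Having at least 1 such UMI did not separate labels, as 0 of 1492 labelled cells, 0 of 236 T cells, and 1 of 85 fibroblasts of S6 had none. The medians were 2.64% in H6 and 2.55% in H7. They were 2.22% in S6 macrophages, 1.28% in S6 T cells, 1.29% in S6 neutrophils, 1.16% in S6 fibroblasts, 1.04% in B-labelled cells of S8 muscle, and 1.24% in spleen B cells. The S6 and healthy distributions thus overlapped over most of their range.

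**Figure D3:**
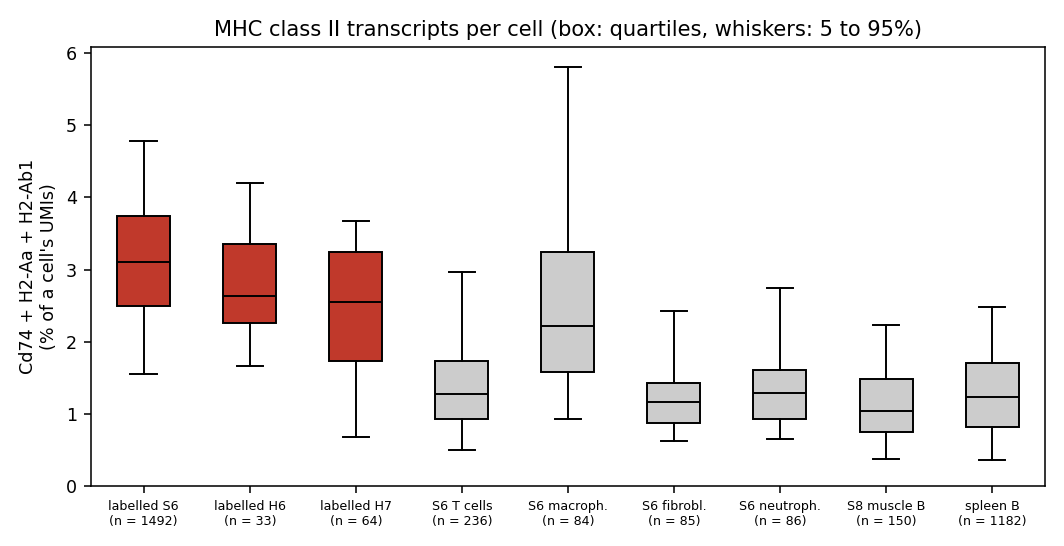
UMIs of Cd74, H2-Aa, and H2-Ab1 as a percentage of all UMIs of a cell (y axis) in Myocyte-labelled cells of S6, H6, and H7 and in other groups (x axis). The line is the median, the box spans the quartiles, and the whiskers reach the 5th and 95th percentiles of cells. The labelled medians of 2.55 to 3.10% lie above those of every other group shown.

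Genes of the B cell receptor and of B cell identity formed the second group. The B cell identity list (12 genes) stood at 4087 CPM in S6, 3970 CPM in H6, and 3324 CPM in H7. It stood at 2151 CPM in S6 T cells, 2004 CPM in S6 fibroblasts, 5904 CPM in B-labelled cells of S8 muscle, and 5220 CPM in spleen B cells. The labelled cells thus lay between the other S6 labels and the cells annotated as B cells.
Cd79a (chr7:24897381-24902197, plus strand), a signalling chain of the receptor, was at 453, 814, and 234 CPM in S6, H6, and H7, against 100.4 CPM in the other annotated cells of S6 muscle. Cd79b, its partner (chr11:106311341-106314762, minus strand), was at 1310, 916, and 773 CPM, against 769 CPM in the other annotated S6 cells. The B cell transcription factor gene Ebf1 was at 554, 305, and 515 CPM.
Ms4a1, which encodes the surface protein CD20 (chr19:11249675-11266241, minus strand), was at 348, 458, and 281 CPM, and stood at 1449 CPM in B-labelled cells of S8 muscle. In the same S8 cells Cd79a was at 751 CPM and Cd79b at 665.5 CPM, and in all spleen B cells Cd79a was at 654, Cd79b at 621, and Ms4a1 at 849 CPM. The S6 cells thus lay below both groups of cells annotated as B cells for Cd79a and Ms4a1, and above both for Cd79b.

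After each cell was thinned to 400 UMIs, 80.3% of the S6 cells (interval 78.2 to 82.3%) held at least 1 UMI of the B cell identity list, and 91.2% did so at full depth. The thinned share was 72.7% in H6 and 67.2% in H7. T cells and fibroblasts of S6, which should lack these genes, had thinned shares of 56.4% (median depth 681 UMIs) and 55.3% (median 973 UMIs). These shares serve here as the level to compare with for this list, and the source of those UMIs was not tested. Spleen B cells had 82.3% (median 587.5 UMIs) and B-labelled cells of S8 muscle 88.0%. At 800 UMIs, which kept 403 labelled cells, the share was 94.3% (interval 91.6 to 96.3%), against 89.1% of S6 fibroblasts (interval 76.4 to 96.4%), 79.2% of macrophages, and 78.0% of T cells. The intervals of labelled cells and fibroblasts thus overlapped at that depth.
Cd79a or Cd79b was seen in 49.3% of S6 labelled cells thinned to 400 UMIs (interval 46.8 to 51.9%), in 19.0 to 31.4% of the S6 macrophages, neutrophils, fibroblasts, and T cells, and in 37.8% of spleen B cells. At 800 UMIs it was seen in 70.5% of labelled cells and 63.0% of fibroblasts. There Cd79b alone was in 58.8% of labelled cells and 60.9% of fibroblasts, and Cd79a alone in 33.0% and 6.52%. Against fibroblasts at this depth the labelled cells thus stood higher for Cd79a and not for Cd79b. For the T cell list the order was turned, with 17.5% of labelled cells and 61.0% of S6 T cells. The share of labelled cells with the B cell list was therefore above that of the other labels of the same library at 400 UMIs, and the share with the T cell list was far below that of T cells and close to the 11.8% of S6 fibroblasts and 14.3% of S6 macrophages.

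The immunoglobulin transcripts of the S6 cells were of many kinds. The kappa constant gene Igkc had 6553 UMIs and the lambda constant genes 1738, a ratio of 3.77. This ratio was 1.79 in H6, 1.74 in H7, 5.11 in S6 T cells, and 18.1 in S6 macrophages, and ranged from 0.706 to 2.93 over the 10 spleen samples of B cells. The S6 ratio thus lay above all spleen samples, as did that of other labels of its library. UMIs fell on 83 kappa variable genes, and the most frequent, Igkv12-98, took 71 of 1213 (5.85%). In S6 macrophages the same gene took 397 of 546. Variable genes of one family are near-identical, and their single values are uncertain. The early heavy chain Ighm had 2518 UMIs and Ighd 424. The class-switched heavy chain Ighg1 had 638 UMIs in S6 (571 CPM), 0 UMIs in H6 and H7, and 1523 CPM in the other annotated cells of S6 muscle, most of all in macrophages (5343 CPM).

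Within S6 muscle, the Myocyte-labelled cells were set against the 497 other annotated cells. This is a description, because the authors drew the labels from expression and there was 1 library. Of 6601 genes with at least 30 UMIs over both sums, 369 (5.59%) were at least 2-fold higher and 593 (8.98%) at least 2-fold lower in the labelled cells, and the median log2 fold over all of them was 0.13.
In the B cell identity list 7 of 12 genes were at least 2-fold higher (among them Cd79a, Cd22, Pax5, Ebf1, Bank1, and Fcmr) and 0 lower, with a median log2 fold of 1.14. In the MHC class II list 3 of the 9 genes measured well enough were 2-fold higher (Cd74, H2-DMb2, and H2-Ob), and all 9 lay above 0 with a median of 0.83. Of the receptor constant genes, 4 of 6 were higher (Ighd, Iglc1, Iglc2, and Iglc3).
The lists of other cells moved the other way: 11 of 11 T cell genes, 7 of 7 granulocyte genes, 7 of 7 fibroblast genes, and 3 of 4 macrophage genes were at least 2-fold lower. The dissociation and heat shock list had 7 of 12 genes lower, the immediate early genes Fos, Fosb, Jun, and Egr1 among them, and the interferon response list had 7 of 10 lower, among them Isg15, Ifit1, and Ifit3.

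The 20 largest folds over the other S6 cells, the number fixed by rule, held several groups. Bank1, a B cell scaffold protein, was 3.80-fold higher (209 against 26 UMIs), Btk, the kinase downstream of the receptor, was 3.51-fold higher (104 against 14), and Cd79a was 4.51-fold higher (506 against 53). Fcrl1, a B cell surface receptor, was 3.78-fold higher (72 against 9), and the kappa joining gene Igkj1 was 6.92-fold higher (337 against 23). The largest of all was the alpha globin gene Hba-a1, 7.89-fold higher (3557 against 213 UMIs). Cerk, which phosphorylates ceramide, was 3.47-fold higher (147 against 20).
Globin RNA was concentrated in few of the cells. In S6, 18 labelled cells with more than 100 globin UMIs held 71.0% of all globin UMIs, and without them the globin level fell from 14953 to 4409 CPM, close to the 4306 CPM of S6 T cells. Those 18 cells had a median of 11.5 UMIs of the 3 class II genes, against 20 in the rest. The globin folds thus rest on 18 cells.

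Set in turn against the 4 of 6 other labels of S6 muscle that had at least 20 cells, B cell identity genes were higher throughout and class II genes were not. Against T cells (7.36% of 5774 genes higher and 4.99% lower), 6 of 12 identity genes and 3 of 9 class II genes were at least 2-fold higher, and Igkj2 led with 7.36-fold. Against macrophages (8.32% of 5481 genes higher and 8.9% lower), 8 of 12 identity genes but only 1 of 9 class II genes (H2-Ob) were higher, and Cd79a was 6.28-fold higher. Against fibroblasts (11.3% of 5527 genes higher and 9.91% lower), 9 of 12 identity genes and 7 of 9 class II genes were higher. Against neutrophils (17.3% of 5375 genes higher and 6.9% lower), 6 of 12 and 6 of 9 were higher. In all 4 comparisons every one of the 12 identity genes lay above a log2 fold of 0.

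The labelled cells of S6 were also compared with each of the 11 other labels of muscle summed over all mice, with the S6 cells of those labels included. At least 2-fold changes are given as shares of the genes tested, followed by examples from the 5 largest folds each way, of genes whose lower side held more than 3 UMIs or none.
Among the labels of lymphocytes, T cells (1283 cells, 10 mice) were nearest in their share of differing genes, with 10.7% of 7306 genes higher and 9.51% lower in the labelled cells. Nupr1, a stress response factor, was 5.97-fold higher (54 against 8 UMIs), and Wdfy4, a gene of antigen presentation, was 5.01-fold higher (68 against 12). The lambda constant gene Iglc1 was 25.0-fold lower (92 against 2036). Against NK cells (142 cells), 17.8% of 5417 genes were higher and 12.8% lower, with Ccr7 11.4-fold higher (751 against 5) and H2-Ab1 11.3-fold higher (7602 against 51). Ms4a4b, a membrane protein of T and NK cells, was 26.3-fold lower (33 against 66). Against the cells labelled B cells (185 cells, 150 of them from S8), 20.3% of 5516 genes were higher and 14.1% lower, and Crem, a transcription factor gene of cyclic AMP signalling, was 17.1-fold higher (1028 against 6 UMIs).
Among the labels named for myeloid cells, macrophages (274 cells) gave 19.2% of 5982 genes higher and 10.6% lower, with Cd79a 11.0-fold higher (506 against 12). The lysozyme gene Lyz1 was 78.0-fold lower (6 against 122). Against the cells labelled dendritic cells (50 cells), 9.1% of 5277 genes were higher and 8.24% lower, with H2-Aa 11.8-fold (9753 against 31 UMIs) and Cd79b 11.0-fold higher (1464 against 5). The neutrophil elastase gene Elane had 0 UMIs against 121 in those cells and was at least 1075-fold lower. Those cells carried 84816 CPM of the granulocyte list, 158183 CPM of the erythroid list, and 3 UMIs of the conventional dendritic cell list, so their genes went against the label. Against the cells labelled monocytes (46 cells), 11.1% of 5296 genes were higher and 11.1% lower, with Cd83 10.7-fold (1042 against 4) and Pim1 10.3-fold higher (1262 against 5). The kappa variable gene Igkv14-111 was 1137-fold lower (14 against 651). The monocyte-labelled cells held 16574 CPM of the plasma cell list and 103466 CPM of the immunoglobulin constant list, against 6210 CPM of the macrophage and monocyte list. Against granulocytes (200 cells), 53.6% of 5528 genes were higher and 7.18% lower, with Ebf1 26.5-fold (619 against 4) and Cd74 19.5-fold higher (16714 against 147). The complement receptor gene C5ar1 was 84.0-fold lower. Against neutrophils (127 cells, 86 of them from S6), 22.0% of 5446 genes were higher, each of the 5 leading ones with at most 3 UMIs in the neutrophils, and 6.59% were lower. The granule gene Ltf was 26.6-fold lower (108 against 314).
Among the other labels, fibroblasts (377 cells) gave 26.7% of 6457 genes higher and 16.0% lower. The class II pseudogene H2-Ea-ps was 11.5-fold higher (235 against 7), and the joint lubricant gene Prg4 was 88.4-fold lower. Against endothelial cells (240 cells), 45.6% of 5893 genes were higher and 10.2% lower, with Cd83 51.5-fold higher (1042 against 5) and Tm4sf1, a membrane protein of endothelium, 132-fold lower (10 against 326). Against erythrocytes (31 cells), 7.64% of 5238 genes were higher and 6.99% lower, with Cd74 12.2-fold higher (16714 against 34) and the carbonic anhydrase gene Car2 135-fold lower (23 against 77). At least 1 of the given markers was thus among the 5 largest folds against 6 of these 11 labels, namely those of dendritic, endothelial, and NK cells, granulocytes, erythrocytes, and monocytes.
Cd79b, Ccr7, and Cd83 were at higher CPM in S6 labelled cells than in each of the 11 labels, which reached 637, 319, and 449 CPM, all in neutrophils. Most of those neutrophils came from S6, so this order also follows the library.
Against the B-labelled cells of S8 muscle, 18.4% of 5469 genes were higher and 14.2% lower. Crem, the cyclic AMP response modulator, stood at 920 CPM in S6 labelled cells, 407 CPM in H6, and 117 CPM in H7, against 2 UMIs in the S8 cells. It also stood at 788 CPM in the other annotated S6 cells. Hes1, a target of Notch signalling, was at 98.4 CPM against 891 CPM in S8 cells. Mouse, library, and label cannot be told apart in this comparison.

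Spleen provided the cells annotated as B cells in every mouse, 1182 in all, with 785678 UMIs. Of 7146 genes, 1704 (23.8%) were at least 2-fold higher and 1217 (17.0%) at least 2-fold lower in the S6 labelled cells, with a median log2 fold of 0.26. Against the spleen B cells of S6 alone, lower genes outnumbered higher ones, as given below with the processing. Library size was also counted without mitochondrial, ribosomal protein, and immunoglobulin genes. Every fold over all spleen B cells then shifted by −0.22, and the split became 1311 higher and 1476 lower. All 4 of the given markers (Cd74, Cd79b, Ccr7, and Cd83) were at least 2-fold higher with plain library size, and 2 of them (Ccr7 and Cd83) with the other, where all 4 still lay above 0.
In the class II list 3 of 10 genes were higher (Cd74, H2-Aa, and H2-Ab1) and Ciita was lower, and with the other library size 1 remained higher (H2-Ab1). In the B cell identity list only Cd79b was higher, and Ms4a1, Cd22, and Ly6d were lower, and the median of the list was −0.65. The list of B cell activation and NF-κB had 6 of 13 genes higher: Cd83, Cd86, and Cd40, which are surface proteins of activated antigen-presenting cells, and Nfkb1, Nfkbid, and Nfkbie. It had Egr1 and Egr2 lower. The homing list had Ccr7 and the BAFF receptor gene Tnfrsf13c higher, and Ltb and Cr2 were among those lower.

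A stricter reading asked which genes lay above or below all 10 spleen samples of B cells in all 3 labelled samples. Of 7272 genes, 316 (4.35%) lay above and 71 (0.976%) below. Without H6, the shallowest of the 3 samples, 620 lay above. Many of the genes above, Dcn among them, had only 1 UMI in H6, which is 50.9 CPM. Many of those below had 0 UMIs there, so both counts depend on the depth of H6. In the class II list 3 of 10 lay above, and in the B cell identity list 0 of 12 lay above and 1 (Cd22) below.
Cd74, at 12805 to 16593 CPM in the labelled samples, lay above the spleen range of 2986 to 7923 CPM (median 6391). H2-Aa lay above a spleen range of 2694 to 5074 CPM (median 3585), and H2-Ab1 above one of 1698 to 3174 CPM (median 1974). None of these 3 genes overlapped between the groups with plain library size, and the other library size was not applied here. H2-Aa in H7, at 5501 CPM (235 UMIs), lay only a little above the spleen maximum.
Ccr7, the receptor that guides lymphocytes and dendritic cells into lymph nodes (chr11:99144196-99155077, minus strand), was at 672, 611, and 468 CPM in S6, H6, and H7, and in spleen B cells its median was 188 CPM and its highest 315 CPM. Cd86 was at 247, 254, and 117 CPM against at most 98.3 CPM, and Cd40 was at 176, 407, and 234 CPM against at most 116 CPM. The healthy values of Ccr7 rest on 12 and 20 UMIs, those of Cd86 on 5 per mouse, and those of Cd40 on 8 and 10.
Pim1, a survival kinase, was at 1129, 1120, and 679 CPM against at most 316 CPM in spleen. Sfn, a 14-3-3 protein best known from epithelia (chr4:133600556-133602168, minus strand), was at 267, 458, and 398 CPM against at most 90.3 CPM. The transcription factor gene Stat3 was at 383, 305, and 164 CPM against at most 76.7 CPM. These genes were high in all 3 labelled samples, and in the other annotated cells of S6 muscle Pim1 was also at 845 CPM and Stat3 at 275 CPM.
Cd79b and Cd83 overlapped with spleen. Cd79b had a spleen range of 218 to 899 CPM, within which H7 lay. Cd83 (chr13:43784775-43803132, plus strand), a marker of activated antigen-presenting cells, was at 932 CPM in S6, above the spleen maximum of 727 CPM, and at 356 and 421 CPM in H6 and H7, near the spleen median of 362 CPM.

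Spleen B cells of the same mouse were set beside the labelled cells of S6, H6, and H7. Cd74 was at 4505, 6851, and 6540 CPM in the spleen B cells of these 3 mice, H2-Aa at 2878, 3377, and 3552 CPM, and Ccr7 at 107, 194, and 315 CPM, each below the labelled cells of the same mouse. For Ccr7 the healthy labelled values rest on 12 and 20 UMIs, and their counting intervals overlapped those of the spleen B cells. Cd79b was at 393, 899, and 747 CPM, so that only S6 differed by more than the counting intervals. Cd83 was at 125, 559, and 419 CPM, above the labelled cells in H6 but within the counting intervals. Hes1 was at 626, 1190, and 616 CPM, above the labelled cells in each mouse.
The healthy labelled cells alone, set against the same spleen B cells, differed at fewer genes, and with 62365 UMIs fewer could be tested. Of 4060 genes, 12.9% were at least 2-fold higher and 7.27% lower. Of the given markers Cd74 and Ccr7 were higher, and in the class II list 2 of 10 genes were (Cd74 and H2-Ab1), while H2-Oa was lower. In the B cell identity list 3 of 12 genes were lower (Ms4a1, Cd22, and Bank1). Sfn was 19.3-fold higher, with 26 UMIs against 17.

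Other genes were lower in the Myocyte-labelled cells than in all spleen samples. Hes1 was at 98.4, 356, and 211 CPM in S6, H6, and H7, against at least 616 CPM in spleen. Ralgps2 was at 61.7, 102, and 23.4 CPM against at least 291 CPM, and Cr2, the complement receptor CD21, at 70.7 CPM in S6 and 0 UMIs in both healthy samples, against at least 105 CPM. A count of 0 allows up to 188 CPM in H6 and 86.4 CPM in H7, so H6 was not separated from spleen for Cr2. In H6 the values of Ralgps2 and Cd22 rest on 2 UMIs each. Cd22, an inhibitory receptor of B cells, was at 159, 102, and 164 CPM against at least 211 CPM. For Cr2 and Cd22 the 18 B-labelled cells of H6 and H7 muscle, in the same libraries, held 528 CPM (5 UMIs) and 633 CPM (6 UMIs). For Hes1 they held 211 CPM (2 UMIs), and for Cd74 13928 CPM (132 UMIs, interval 11654 to 16517). In the same healthy libraries the level of Cd74 thus did not separate the 2 labels within their counting intervals.

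RNA of other cells moved with the spleen comparison. The fibroblast list was at 1254 CPM in S6 labelled cells, 560 CPM in H6, and 538 CPM in H7, against 26.7 CPM in spleen B cells, and 6 of 6 of its genes were at least 2-fold higher in S6. The largest fold of all was the matrix proteoglycan gene Dcn, with 379 UMIs against 0, at least 88.8-fold higher. The granulocyte list was at 13426 CPM in S6, against 4073 CPM in spleen B cells and 11224 CPM in S6 T cells. The part of such RNA in the folds over spleen was not tested.
The spleen cells labelled dendritic cells (371 cells, 278611 UMIs) carried 124299 CPM of the granulocyte list and 57.4 CPM of the conventional dendritic cell list, so the defining markers of that label were scarce and those of granulocytes abundant. Only 3 spleen samples held at least 20 such cells, and in all 3 labelled samples 1210 of 5869 genes (20.6%) lay above them and 312 (5.32%) below. Against the sum of all 371 cells, 2234 of 5814 genes (38.4%) were at least 2-fold higher in S6 labelled cells and 408 (7.02%) lower. This balance rested on the reference, with 81 higher and 229 lower against S6 spleen alone and 633 higher against the experiment CIA alone. All 4 of the given markers, 8 of 9 class II genes, and 5 of 12 B cell identity genes were higher. The granule genes Prtn3 (104-fold) and Elane (0 UMIs in labelled cells, at least 321-fold) were among the 10 most reduced. Crem was 42.7-fold higher (1028 against 6 UMIs).

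Markers of conventional dendritic cells were scarce in the Myocyte-labelled cells themselves. The conventional dendritic cell list was at 47.4 CPM in S6 and 0 in H6 and H7. The list of mature migratory dendritic cells was not scarce, at 1484 CPM in S6, of which Ccr7 alone gave 672 CPM. The highest spleen samples held 1258 CPM (B cells) and 1022 CPM (dendritic cells) of this list, and the highest other muscle label held 1596 CPM. The members of the list differed widely. Ccl17 had 0 UMIs, Cacnb3 had 1, Ccl22 had 6, and the cytoskeletal gene Fscn1 had 8. Of its other members Tmem123 gave 250 CPM, Cd40 gave 176 CPM, and the NF-κB subunit gene Relb gave 98.4 CPM. The germinal centre B cell list was at 152 CPM in S6, above the highest spleen sample of B cells (90.3 CPM) and below muscle macrophages (456 CPM). The plasma cell list was at 683 CPM, against a spleen median of 903 CPM.

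The label was repeated in healthy muscle with few cells. The 97 cells of H6 and H7 (62365 UMIs) were set against the 960 other annotated cells of the 4 healthy muscle samples. H3 and H4 held no labelled cells, and H3 belonged to the other experiment, so differences of mouse and library enter these folds. Against the other cells of H6 and H7 alone fewer genes were higher, as given below with the processing. Of 3762 genes, 612 (16.3%) were at least 2-fold higher and 230 (6.11%) lower, with a median log2 fold of 0.18. All 4 of the given markers, 8 of 9 B cell identity genes, 7 of 7 class II genes, and 5 of 6 receptor constant genes were higher. Cd79b was 5.49-fold, Ccr7 5.55-fold, Cd74 4.16-fold, and Cd79a 3.91-fold higher. The granulocyte list had 6 of 8 genes lower and the fibroblast list 6 of 6.
Among the 20 largest folds, Sfn was 7.73-fold higher (26 against 42 UMIs), Cerk was 12.5-fold higher (26 against 26), and Tnfrsf13c was 6.24-fold higher. Cerk also stood high in S6 (3.47-fold over the other S6 cells). The largest fold, 49.9 for Dqx1, rested on 12 UMIs that were all in H7, and S6 labelled cells had 5 UMIs of it.
The globin genes went the other way in healthy muscle. Hba-a1 and Hbb-bs were at least 2-fold lower in the labelled cells there, and the erythroid list was at 29928 CPM in H6 and 41739 CPM in H7, against 78542 CPM in the other annotated healthy cells. The labelled values rest on few cells, as 1 cell held 93.0% of the globin UMIs in H6 and 2 cells held 70.2% in H7. Without these cells the globin level was 2191 CPM in H6 and 13247 CPM in H7. Globin-rich cells were not removed from the reference.

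**Figure D4:**
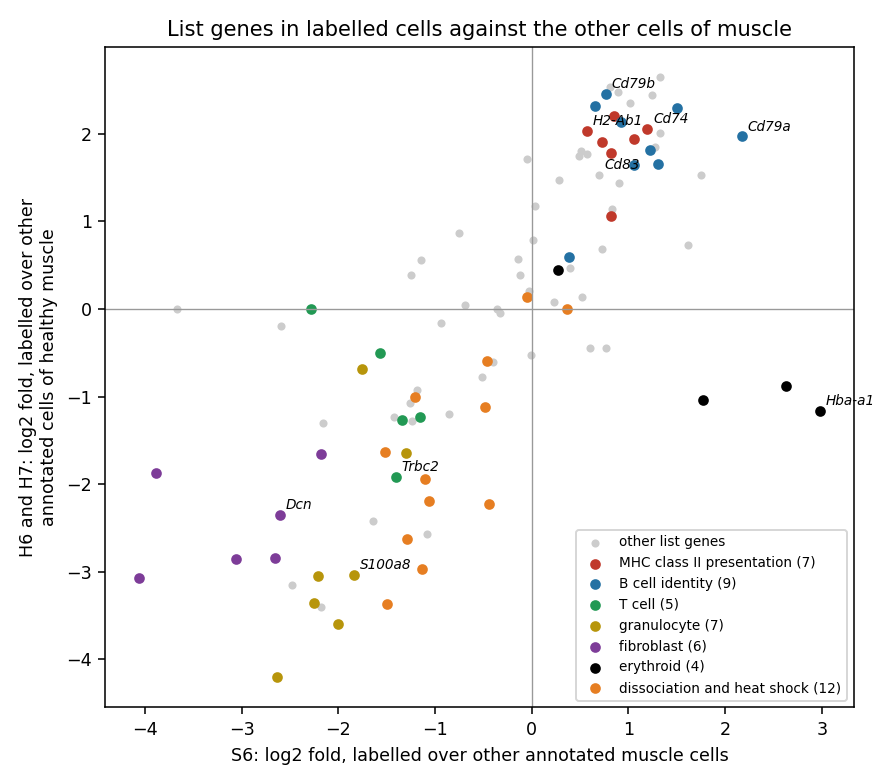
Log2 fold of list genes in Myocyte-labelled cells over other annotated cells of S6 muscle (x axis) and over other annotated cells of healthy muscle (y axis), 1 point per gene and 100 genes in all. The 7 class II and 9 B cell identity genes shown lie above 0 on both axes, and the globin genes Hba-a1, Hbb-bs, and Hbb-bt lie above 0 on the x axis only.

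The healthy and S6 labelled cells differed in some groups. Healthy cells had 469 of 5334 genes (8.79%) at least 2-fold higher than S6 cells and 288 (5.40%) lower. In the activation list 6 of 12 genes were lower in the healthy cells: Cd83, Nfkb1, Nfkbid, Nfkbie, Egr1, and Myc. Nfkb1 was at 369 CPM in S6 and at 102 and 140 CPM in H6 and H7 (2 and 6 UMIs). In the class II list 1 of 9 (H2-Eb1) and in the B cell identity list 1 of 12 (Bank1) was lower and 1 (Fcmr) was higher. Disease, mouse, and library cannot be told apart here.

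Within the S6 cells most genes varied about as much as counting alone gives. Over 1920 genes the median ratio of variance to mean was 1.09 (a Poisson count has variance equal to its mean), and 24 genes exceeded 2. For genes with few UMIs per cell this ratio stays near 1 even when only part of the cells make them. It therefore cannot show whether the cells were uniform. The largest ratios were those of the globins Hbb-bs (348), Hba-a1 (166), and Hbb-bt (66), then of Igkj5 (13.4), mt-Rnr2 (6.96), S100a8 (6.75), and Ighg1 (5.32, in 441 cells). When the cells were split by their UMIs into 4 groups of equal size, from the shallowest to the deepest, the B cell identity list fell from 4644 to 4492, 4106, and 3692 CPM, and the class II list was at 34649, 34463, 33202, and 30480 CPM. The T cell list was at 473, 443, 550, and 618 CPM over the same groups. The leading lists were thus highest in the shallowest cells.

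Over 9862 genes, the summed profile of the S6 cells was compared with those of all labels and organs of at least 30 cells by the correlation of log2(CPM + 10). It was most like S6 T cells (Pearson 0.924), followed by muscle T cells (0.921), S6 macrophages (0.846), muscle macrophages (0.836), spleen B cells (0.830), and the healthy Myocyte-labelled cells (0.83). S6 T cells share the library with it, and the larger profiles share the lower counting noise. When all profiles were thinned to equal UMIs, S6 T cells stayed first (0.591), the healthy labelled cells came second (0.571), and spleen B cells were at 0.518. These correlations are across genes, which are not independent, and are a description without a test.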

How the data were processed

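Reads had been mapped to GRCm38 (STAR, within the Drop-seq tools), and what the authors deposited were raw UMI counts, not normalized, for 34586 genes in 13240 cells of 48 libraries. They had removed cells by UMIs, genes, and mitochondrial share, with an upper limit on transcripts against doublets, and no doublet caller was run here. Their cell type labels, taken as deposited for 12096 cells, came from clusters of denoised counts matched to reference profiles and then to marker genes.

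Cells were selected by label and organ, and UMIs were summed per sample and label and divided by their total (CPM). Folds were taken for genes with at least 30 UMIs over both sums. A count under 3 on the lower side was set to 3, and the fold is then a bound. No p-values were computed, because the labels derive from expression and most cells come from 1 mouse. Intervals are exact 95% Poisson or Clopper-Pearson intervals. For shares of cells, cells were thinned to 400 UMIs, and shallower ones left out. Named genes were the given markers, members of 31 marker lists, and the largest folds of each comparison (20 over the other cells of S6 and of healthy muscle, 10 each way against spleen labels, 5 each way against other muscle labels), with at least 50 UMIs, or 10 in healthy muscle. Any others, such as the genes named among those not overlapping with spleen, were chosen after their values were seen. Members and lists were chosen with earlier results of these data known. Alternatives were another library size, mean CPM over cells, other UMI minimums and folds, fewer reference samples, and leaving out each healthy mouse. The fold script was tested on simulated counts. Python 3.11.15, numpy 2.4.6, scipy 1.17.1, pandas 2.3.3, and matplotlib 3.10.9 were used.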

Additional observations from a re-analysis of the deposited data

Results flagged for a closer look

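Among 34 groups of 4 or 6 samples examined by Dixon's outlier rule for a sample far from the rest, 4 held one. Chance alone gives about 1 in 20. That rate holds for normal values, which levels from few UMIs need not follow. The uneven S6 share was known when the cells were chosen. In CIA muscle the share of annotated cells labelled Myocytes was 75.0% in S6, far above the next sample at 1.44%. In spleen B cells of CIA mice the B cell identity list was lowest at 2185 CPM in 1 sample, and the next lay at 4577 CPM. That lowest sample, S3, held only 24 cells and 30 UMIs of the list. For Sfn in spleen B cells the highest healthy sample was at 90.3 CPM (next 26.2 CPM) and the highest CIA sample at 72.8 CPM (next 25.6 CPM), and all labelled samples of muscle were still above these.

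Signals also appeared in cells outside the comparisons. The 107 cells of S6 muscle that had no label carried 24776 CPM of the MHC class II list, against 7322 CPM in the unlabelled cells of healthy muscle. In joint, 17 of the 955 annotated cells of S5 (1.78%) carried the label Myocytes, against 2 of 404 (0.495%) in healthy joints. The other CIA joints did not share this, with 1 of 605 cells in S1 and none in S3, S6, and S8.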

How the results depend on the processing

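No test between groups was run, so none was paired. Values of muscle and spleen from the same mouse are given side by side for S6, H6, and H7. Of 564 recomputed log2 folds of 188 pairs of a named gene and a comparison, 548 changed by less than 0.5, 16 by more, and 0 turned direction once past 2-fold. Among the alternatives used, the other library size shifts every fold of a comparison by the same amount. Its share of these folds therefore says little about single genes. The S6 share was 71.2% of all cells including unlabelled ones. The class II list in S6 was at 33339 CPM as a mean over cells, at 40192 CPM with the library size without mitochondrial, ribosomal protein, and immunoglobulin genes, and at 32883 CPM without globin-rich cells, an alternative added after seeing the data like the equal-UMI correlation, the H6 and H7 reference, and the S6 and H7 count below. Higher and lower genes within S6 muscle were 85 and 185 with at least 100 UMIs, 722 and 2242 with no minimum, and 39 and 203 at 4-fold. Against spleen B cells they were 729 and 419 with at least 100 UMIs and 727 and 790 with S6 spleen alone, and 3031 were lower with no minimum. Against spleen dendritic cells they were 984 and 110 with at least 100 UMIs and 81 and 229 with S6 spleen alone, 1689 were lower with no minimum, 633 were higher in the experiment CIA alone, and 1460 without S2. In healthy muscle 105 were higher with at least 100 UMIs, 1397 with no minimum, and 368 against H6 and H7 only. Leaving out 1 healthy mouse gave 401 to 581 higher (401 without H4, 403 without H7) and 80 to 223 lower (80 without H7). With S6 and H7 alone, 620 genes lay above all spleen B cell samples. The correlation with spleen B cells was 0.760 by Spearman and 0.518 at equal UMIs. The share of S6 cells with a B cell identity UMI was 91.2% unthinned and 94.3% at 800 UMIs, where S6 fibroblasts had 89.1%. The values that moved most were counts of genes, whose causes beyond fewer genes tested or fewer samples were not tested. Depth limits the healthy labelled cells most, where 1 UMI is 16.0 CPM.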

Other observations

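The few Myocyte-labelled cells of other CIA mice also carried class II and B cell genes. The 15 cells of S2, S3, and S5 muscle (8457 UMIs) held 22821 CPM of the class II list (interval 19715 to 26278), 4257 CPM of the B cell identity list (interval 2981 to 5893), and 2 UMIs of the skeletal muscle fibre list. They held as many erythroid UMIs as class II UMIs (193 each), of which 188 erythroid UMIs were in the 5 cells of S5, and the fibroblast list was at 3429 CPM (8986 CPM in S5). The 17 labelled joint cells of S5 (8859 UMIs) held less of the class II list, 11852 CPM (interval 9694 to 14348), 5531 CPM of the B cell identity list (interval 4092 to 7312), and 0 UMIs of the fibre list.

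The unlabelled cells of S6 muscle (107 cells, median 411 UMIs) held 3287 CPM of the B cell identity list, against 966 CPM in the unlabelled cells of healthy muscle. In S6, 21 of the 1492 Myocyte-labelled barcodes differed by 1 base from another barcode of the library.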
